A study of Cricetulus griseus and Cricetulus griseus
Mus musculus and Mus musculus with 202 samples.

Results

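Mouse liver RNA was compared directly with Chinese hamster liver RNA on 2 two-colour microarrays, chosen because their labels name both channels as liver. They were 2 of 202 arrays in a series otherwise made of 99 mouse-hamster radiation hybrid lines, each set against its hamster recipient line, and 2 arrays of mouse against hamster brain. On liver replicate 1 the hamster RNA carried Cy5 and the mouse RNA Cy3, and on replicate 2 the dyes were exchanged. Both channels held total RNA from whole liver. No strain, age, sex, treatment or number of animals is given for either species in the sources used here. The labels call the 2 arrays biological replicas without saying which animals they came from. The p-values below therefore measure only disagreement among the arrays used, in the main the 2 liver and 2 brain arrays. That disagreement may be technical, and the error of each gene is drawn towards that of all genes. Both ratios were turned so that a positive value means more signal from mouse, expressed on the log2 scale and averaged, and the 2 brain arrays served to estimate the dye offset of each gene. Each array held 20868 features, of which 17786 carried a single gene symbol and covered 16504 genes.

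Hepatocytes make up most of the mass of the liver. They secrete most plasma proteins, make cholesterol and bile acids, turn amino nitrogen into urea, burn and store fat and glucose, and clear foreign and endogenous compounds through cytochrome P450 enzymes and conjugation. Macrophages called Kupffer cells, a fenestrated endothelium, stellate cells and bile duct cells surround them. Mouse and hamster are both rodents, and mouse probes read hamster RNA only where the sequences match well enough. Weak binding of a hamster transcript to its mouse probe and a lower abundance of that transcript in hamster liver raise the ratio alike, and these cannot be told apart here. Brain from the same pair of species was measured on the same probes, so a liver ratio that differs from the brain ratio is a difference between tissues on 1 probe set, and that difference was tested. Without intensities, a brain ratio may come from a gene scarcely expressed in brain. The difference therefore does not separate weak binding from abundance.

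A gene was called higher or lower in mouse liver at a Benjamini-Hochberg adjusted p under 0.05 over all 16504 genes in limma, fitted to the 2 liver and 2 brain arrays with a term for each tissue and 1 dye offset per gene. By this rule 2697 genes were higher (16.3%) and 1521 lower (9.22%), or 25.6% in either direction. Tested feature by feature, 14.7% were higher and 8.37% lower. Without the dye offset, 388 were higher (2.35%) and 373 lower (2.26%), together 4.61%, and all 761 of these were also called with it. The mean of a gene is the same in both fits and only its error changes. The 2 rules did not treat all genes alike. Among the 2109 genes called in the same direction in liver and brain, 40 (1.90%) were called without the offset. Among the 1944 genes called in liver and not in brain, 704 (36.2%) were. The deposited values had been centred feature by feature on the median of the 4 tissue ratios, which moves a gene with equal ratios in both tissues most, and the offset term takes that shift out. Counts for both rules are given for each group of genes. The centring also puts the oriented values of most genes on the same side of 0 on both liver arrays, so that agreement in sign between the arrays is not used as a result. Values of single arrays are given as deposited and still hold that shift. The gap and the order of the 2 liver arrays can therefore change once the brain offset is removed. Fits that left out any 1 array have no residual degree of freedom beside the offset, and without it they called 0 genes.

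Large ratios lay mostly on the mouse side. Over all genes the median liver mean was 0.02 and the median absolute mean 0.56. Means of at least 3, an 8-fold ratio, were called for 642 genes, and means of -3 or below for 87. A ratio deposited at the lower limit of -6.64 (log2) gives a bound. This touched 239 genes on the mouse side, whose means are written as "at least", and 4 on the hamster side, written as "or below". In 132 genes both the liver and the brain value of replicate 1 lay at the limit. The median of all errors was 0.23 (limma SE), with quartiles of 0.21 and 0.27.

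**Figure D1:**
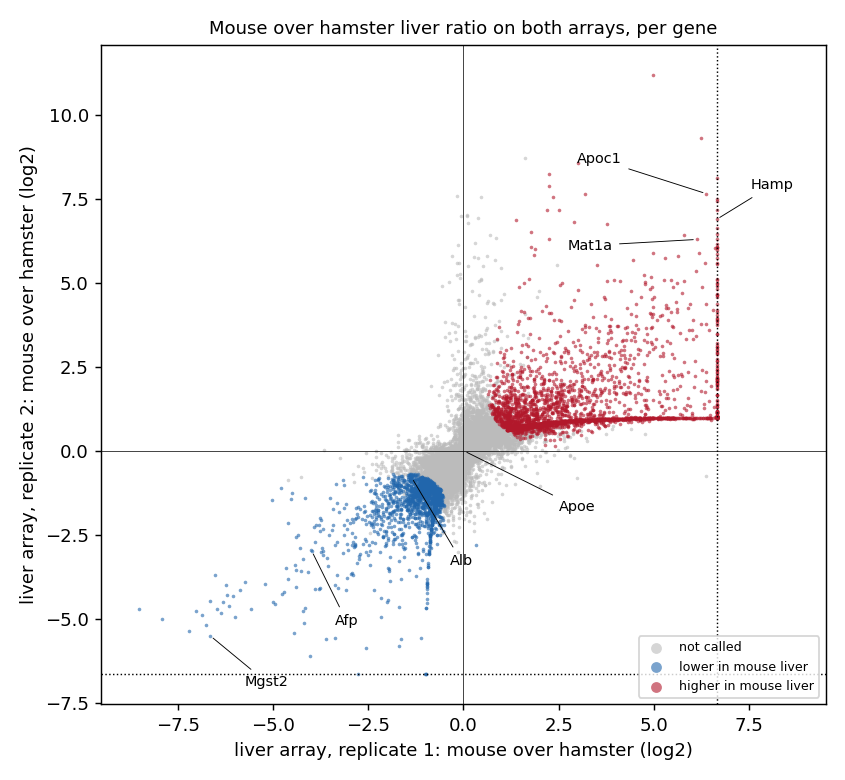
Each point is 1 gene, with its mouse over hamster ratio (log2) on liver replicate 1 across and on replicate 2 upward; called genes are coloured by direction. The column of points at 6.64 on the horizontal axis is the deposited limit, and the points gathered near 1 on the vertical axis within it are the genes whose brain value lay at the limit as well; the 3 named genes Apoc1, Mat1a and Hamp lie far to the upper right.

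The 3 genes used to mark liver were among the most strongly shifted to mouse. Apoc1, an apolipoprotein of plasma lipoproteins, stood at 6.37 on replicate 1 and 7.65 on replicate 2. Its mean was 7.01 ± 0.34 (limma SE from the 4 tissue arrays) or 129-fold, with an adjusted p of 0.00506 by limma. Mat1a, the liver enzyme that makes S-adenosylmethionine, stood at 6.12 and 6.29, a mean of 6.21 ± 0.21 or 73.8-fold. Hamp encodes hepcidin, the hormone that limits iron release into plasma. It was at the limit on replicate 1 and at 6.89 on replicate 2, a mean of at least 6.76. All 3 were also called without the dye offset. The brain means of the same genes were 0.61, -0.40 and -1.29, and the liver ratio was above the brain ratio for each by limma, by 6.40 for Apoc1, 6.60 for Mat1a and 8.05 for Hamp (adjusted p = 0.0163 for each, the smallest reached in that test).

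Hepatocyte markers that were called stood mostly on the mouse side, and others were not called. Of 13 measured hepatocyte markers, 7 were higher and 1 lower (7 and 0 without the dye offset), beside 16.3% and 9.22% of all genes. Their median was 2.61, and all 7 higher ones also stood above their brain ratio. The list includes Apoc1, Mat1a and Hamp, all among the higher ones, and was drawn up with earlier results of these data known. Its count and median are therefore not independent of the 3 liver markers above. The transthyretin gene Ttr averaged 3.22 ± 0.25, the tyrosine aminotransferase gene Tat 3.79 ± 0.21 and the ethanol-inducible P450 gene Cyp2e1 2.61 ± 0.21, all higher. Albumin, Alb, was the lower one, at -1.36 and -0.79, a mean of -1.07 ± 0.25 (adjusted p = 0.0472 by limma, not called without the dye offset). Hnf4a, the master regulator of hepatocyte identity, averaged -0.12 ± 0.21, Apob, the structural protein of very low density lipoprotein, -0.20 ± 0.34, and Fabp1, the liver fatty acid binding protein, -0.51 ± 0.42, and none of these was called. The files hold ratios without intensities, so the abundance of these markers in either liver could not be read.

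The 15 highest genes with no value at the limit had adjusted p-values from 0.00506 to 0.0389 by limma, and 10 of them were also called without the dye offset. The liver ratio was above the brain ratio by limma for 10, and no difference was called for Marchf5, Mup5, Pitpnm2, Mtm1 and Slc10a2. The 15 genes included Apoc1 and Mat1a and several enzymes of lipid and xenobiotic handling. Gsta3, a glutathione transferase, stood at 5.78 and 6.41, a mean of 6.10 ± 0.40. Cyp3a41a, a cytochrome P450 of the family that oxidises steroids and drugs, stood at 6.19 and 5.89, a mean of 6.04 ± 0.21. Ephx2, the soluble epoxide hydrolase, stood at 6.10 and 5.34, a mean of 5.72 ± 0.25. These 3 genes had similar deposited values on both arrays, although Gsta3 stood at 5.11 and 7.09 with the brain offset removed. Rdh7, a retinol dehydrogenase, averaged 5.51 ± 0.23, and Slc10a2, the bile acid transporter best known from ileum, averaged 5.42 ± 0.52. Msrb1, a selenoprotein that reduces oxidised methionine, averaged 5.71 ± 0.21, Mettl7b, a methyltransferase-like protein, 5.96 ± 0.25, and the olfactory receptor gene Olfr1061 5.56 ± 0.32.

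The other 5 of the highest genes were called only with the dye offset. Marchf5, a mitochondrial ubiquitin ligase, stood at 4.98 and 11.19, a mean of 8.09 ± 1.10. Mup5, a member of the major urinary protein family, stood at 6.23 and 9.32, a mean of 7.77 ± 1.00. Rdh14, another retinol dehydrogenase, stood at 6.61 and 6.04, a mean of 6.32 ± 0.47. As deposited, replicate 2 was well above replicate 1 for Marchf5 and Mup5 and close to it for Rdh14. With the brain offset removed, Rdh14 stood at 5.11 on replicate 1 and 7.53 on replicate 2. Pitpnm2, a phosphatidylinositol transfer protein, averaged 5.77 ± 1.22 and Mtm1, the lipid phosphatase myotubularin, 5.43 ± 0.81. With a robust variance prior in limma, Pitpnm2 was not called (adjusted p = 0.0529).

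Among genes at the limit, the highest bounds were those of Ces3b, a carboxylesterase, at least 7.38, Kng1, the kininogen that releases bradykinin, at least 7.07, and Cyp2f2, a P450 found in liver and airway, at least 7.04. Akr1c6, an aldo-keto reductase that acts on steroids, averaged at least 6.90. Their replicate 2 values, which were not at the limit, were 8.12, 7.50, 7.44 and 7.16. These 4 genes and Hamp were called with and without the dye offset, and each stood above its brain ratio, where brain means of the 5 ran from -1.29 to 0.83.

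On the hamster side, the 15 lowest genes with no value at the limit had adjusted p-values from 0.00506 to 0.0106 by limma, and 13 of them were also called without the dye offset. Their liver ratio was below the brain ratio in all 15. Mgst2, a microsomal glutathione transferase, stood at -6.64 and -5.50, a mean of -6.07 ± 0.34. Hbb-y, an embryonic beta-globin, stood at -6.86 and -4.87, a mean of -5.86 ± 0.40. Il1r2, the decoy receptor for interleukin-1, stood at -6.32 and -4.50, a mean of -5.41 ± 0.46. Each of these genes was lower on replicate 1 than on replicate 2. Rnase2a, a ribonuclease of eosinophils, averaged -6.60 ± 0.71, and the olfactory receptor gene Olfr1216 -6.46 ± 0.62, both called only with the dye offset. Mybphl, a myosin-binding protein, averaged -6.27 ± 0.53, Spns3, a sphingolipid transporter-like protein, -5.96 ± 0.35, and Kdelr3, which returns proteins to the endoplasmic reticulum, -5.58 ± 0.39. The lists of plasma, lipid and detoxification genes held only Mgst2 of these 15. The remainder were Olfr1230 (-5.88), 3110021A11Rik (-5.59), the calcium-binding copine Cpne7 (-5.56), the rod channel Cnga1 (-5.47), the mitochondrial aminopeptidase Metap1d (-5.39), the cadherin Fat3 (-5.25) and the small heat shock protein Hspb3 (-5.18), each given as its liver mean.

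The 4 genes at the limit on the hamster side were Il1b, the cytokine interleukin-1 beta, at -4.70 or below, and Pdxdc1, the embryonic globin Hbb-bh1 and the keratin Krt23, each at -3.82 or below. Their brain means lay between -4.32 and -3.57, where those of Pdxdc1, Hbb-bh1 and Krt23 hold a brain value at the limit and are bounds as well. None was called without the dye offset. No difference from brain was called, and for genes at the limit in both tissues its size is not determined.

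**Figure D2:**
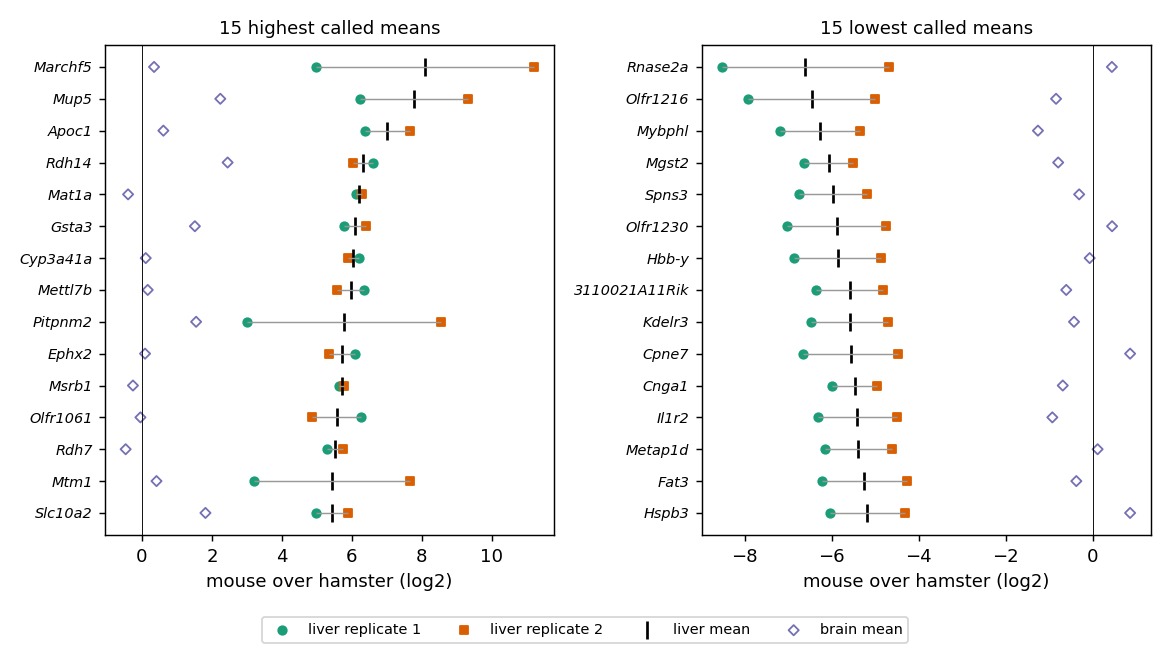
The 15 highest (left) and 15 lowest (right) called genes without a value at the deposited limit are shown by their mouse over hamster ratio (log2) on each liver array as coloured points, their liver mean as a bar and their brain mean as an open diamond. Liver means run from 5.42 to 8.09 on the left and from -6.60 to -5.18 on the right, and every liver mean lies further from 0 than the brain mean of its gene. The difference from brain was called for 10 genes on the left and 15 on the right.

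Plasma proteins were counted in 4 lists, lipoprotein, clotting, complement and other plasma proteins. In the apolipoprotein and lipoprotein list, 8 of 20 measured members were higher and 0 lower (5 and 0 without the dye offset), with a median of 0.75 beside 0.02 over all genes. Apoa1, the main protein of high density lipoprotein, stood at 4.96 and 3.69, a mean of 4.33 ± 0.27. Apom, which carries sphingosine-1-phosphate, averaged 4.16 ± 0.30, and Apof averaged at least 5.29 and was called only with the offset. Apoa1 was higher on replicate 1 than on replicate 2, and both Apoa1 and Apom were called by both rules. Apoe, the ligand for remnant uptake, averaged 0.00 ± 0.30 and Apoa2 -0.36 ± 0.60, and neither was called. Of the 8 higher genes, 1 was also higher in brain, and the liver ratio exceeded the brain ratio for 6 members of the list.

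Clotting and fibrinolysis genes showed the same kind of split, with 13 of 30 measured members higher and 1 lower (7 and 0 without the dye offset) and a median of 0.99. Plg, plasminogen, stood at 5.90 and 4.24, a mean of 5.07 ± 0.34. Serpind1, the thrombin inhibitor heparin cofactor II, averaged at least 5.66, and Serpinf2, which inhibits plasmin, at least 5.42, the latter called only with the offset. For Plg, replicate 1 was the higher array. The prothrombin gene F2 averaged 2.48 ± 0.25 and the fibrinogen alpha gene Fga 1.38 ± 0.21, both higher, Fga only with the offset. Hrg, a histidine-rich plasma glycoprotein, was the lower member at -1.02 ± 0.22 and was called only with the offset. The fibrinogen beta gene Fgb averaged -0.72 ± 0.21 and the antithrombin gene Serpinc1 0.30 ± 0.40, without a call. None of the 13 higher genes was called higher in brain, and 13 members stood above their brain ratio.

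In the complement list 13 of 28 measured members were higher and 1 lower (7 and 0 without the dye offset), with a median of 0.80. Hc, the C5 component, stood at 5.15 and 4.00, a mean of 4.58 ± 0.29. The protease Cfi, which inactivates C3b, averaged at least 6.35, the membrane attack component C8b at least 6.24, and the C1 protease C1ra at least 5.27. C1ra was called only with the offset, and its brain mean was 2.04. C1qc, a C1q chain made by macrophages, was the lower member at -0.98 ± 0.22, called only with the offset.

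The remaining plasma and acute phase proteins were divided. Of 39 measured, 17 were higher and 8 lower (5 and 4 without the dye offset), with a median of 0.55. On the mouse side stood Orm2, an acid glycoprotein of the acute phase, at 5.50 and 4.86, a mean of 5.18 ± 0.23. Azgp1, the zinc-binding glycoprotein, averaged 5.37 ± 0.23 and the protease inhibitor Serpina3n at least 5.64, both called only with the offset. On the hamster side stood Afp, alpha-fetoprotein, at -3.98 and -2.97, a mean of -3.48 ± 0.27. Serpina7, the thyroxine-binding globulin, averaged -3.30 ± 0.25, Fetub -2.71 ± 0.21 and Lcn2, which sequesters bacterial siderophores, -2.67 ± 0.28. Afp was lower on replicate 1 than on replicate 2, and these 4 lower genes were also called without the offset. Haptoglobin, Hp, averaged -0.37 ± 0.26 and Ambp -0.87 ± 0.25, without a call.

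Iron and haem genes included 13 higher and 5 lower of 32 measured (4 and 0 without the dye offset), with a median of 0.95. Besides Hamp, Tfr2, the iron sensor upstream of hepcidin, stood at 4.47 and 3.40, a mean of 3.93 ± 0.21. Tmprss6, a protease that restrains hepcidin, averaged 4.31 ± 0.31 and Aco1, the iron-responsive RNA-binding protein, 3.45 ± 0.23, both called only with the offset. Hpx, which scavenges haem, averaged -1.67 ± 0.21, the transcription factor Atoh8 -1.93 ± 0.25, the ferrireductase Steap3 -1.14 ± 0.22 and the signalling inhibitor Smad6 -0.98 ± 0.21. These 4 were lower and called only with the offset, and Hpx had a brain mean of -1.47.

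**Figure D3:**
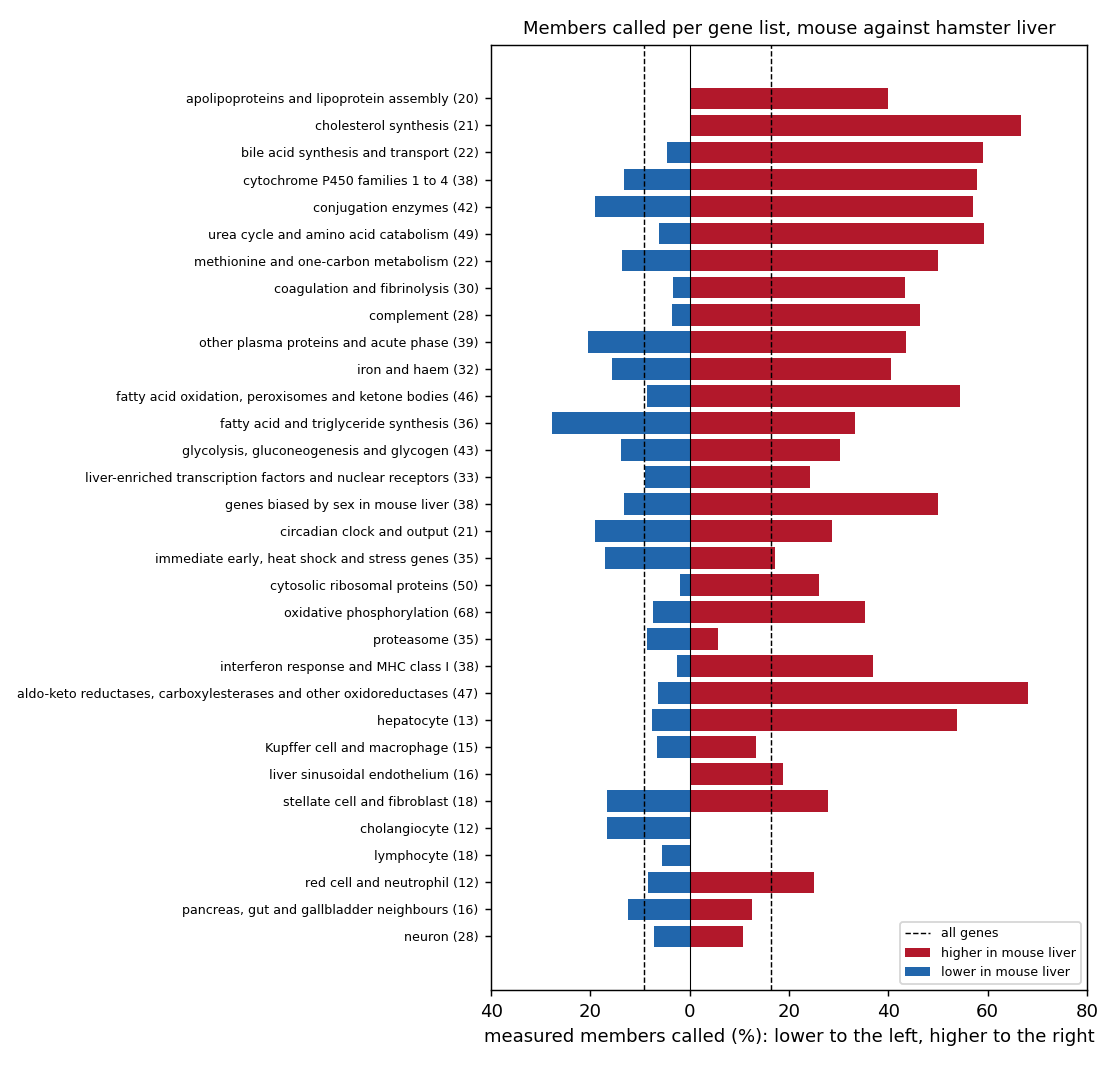
For each gene list the bars give the percent of measured members called higher (to the right) and lower (to the left) in mouse liver with the dye offset, with the number measured after the name and dashed lines at the percent of all genes, 16.3 and 9.22. The bars of aldo-keto reductases, carboxylesterases and other oxidoreductases and of cholesterol synthesis reach far beyond the dashed line on the right, while the proteasome bar ends before it.

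Cholesterol synthesis was shifted to the mouse side without a called exception. All 14 called genes of 21 measured were higher (5 without the dye offset), and the median was 2.02. The early enzyme Hmgcs1 stood at 2.32 and 1.88, a mean of 2.10 ± 0.21. Fdps, which makes farnesyl diphosphate, stood at 2.42 and 1.61, a mean of 2.02 ± 0.21. Sqle, which commits squalene to sterols, stood at 2.18 and 1.81, a mean of 1.99 ± 0.21. As deposited, all 3 were higher on replicate 1 than on replicate 2, with the widest gap for Fdps. With the brain offset removed, Sqle stood at 1.92 on replicate 1 and 2.06 on replicate 2. Further along, Cyp51 averaged 1.40 ± 0.21, the sterol isomerase gene Ebp 4.68 ± 0.32 and Dhcr7, which acts on the last double bond, 3.24 ± 0.30. Msmo1 and Insig1, which holds back the SREBP activators, averaged at least 3.92 and at least 3.82. Fdps, Ebp, Dhcr7, Msmo1 and Insig1 were called only with the offset. The shift was shared with brain for many genes, since 9 of the 14 were also higher in mouse brain and the liver ratio exceeded the brain ratio for 4.

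Bile acid synthesis and transport had 13 higher and 1 lower of 22 measured (7 and 0 without the dye offset), with a median of 1.43. Abcb11, the pump that exports bile salts into the canaliculus, stood at 4.21 and 3.11, a mean of 3.66 ± 0.25. Cyp2c70, which makes muricholic acids in mouse, stood at 5.47 and 3.73, a mean of 4.60 ± 0.28. Acox2, which shortens the bile acid side chain, stood at 3.68 and 4.56, a mean of 4.12 ± 0.30. Replicate 1 was the higher array for Abcb11 and Cyp2c70 and the lower for Acox2. The basolateral uptake carrier Slc10a1 averaged 1.93 ± 0.21. Amacr and Cyp7b1 averaged at least 5.26 and at least 3.91, with brain means of 3.66 and at least 3.82, and were called only with the offset. The rate-limiting enzyme Cyp7a1 averaged 0.47 ± 0.26 and the sterol hydroxylase Cyp8b1 1.41 ± 0.62, without a call. Nr0b2, the repressor that bile acids induce through the receptor FXR, was the lower gene at -1.54 and -2.90, a mean of -2.22 ± 0.26, called only with the offset.

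Fatty acid oxidation, peroxisomes and ketone bodies gave 25 higher and 4 lower of 46 measured (4 and 3 without the dye offset), with a median of 1.24. Uox, the peroxisomal urate oxidase, averaged at least 6.31 and was called by both rules. Acadm, the medium-chain dehydrogenase, averaged at least 5.28, Hacl1 at least 4.90 and Acsm3 at least 4.76, each called only with the offset. Ehhadh, a peroxisomal bifunctional enzyme, was lower, at -2.28 and -2.41, a mean of -2.34 ± 0.21. The long-chain dehydrogenase gene Acadl averaged -1.58 ± 0.21, the carnitine acetyltransferase gene Crat -1.26 ± 0.21 and catalase, Cat, -0.96 ± 0.23, all lower and Cat only with the offset.

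Fat synthesis and storage was the most evenly divided of the metabolic lists, with 12 higher and 10 lower of 36 measured (5 and 4 without the dye offset) and a median of 0.20. Acacb, the acetyl-CoA carboxylase of the mitochondrial surface, stood at -4.40 and -3.54, a mean of -3.97 ± 0.27, lower. Fasn, fatty acid synthase, stood at -2.66 and -2.02, a mean of -2.34 ± 0.24, lower. Replicate 1 was the lower array for both, and both were also called without the offset, as was the lipid droplet acyltransferase and hydrolase gene Pnpla3, at -2.82 ± 0.23. The lipoprotein receptor gene Vldlr averaged -2.32 ± 0.24, lower only with the offset. On the mouse side, the lipid droplet coat gene Plin2 stood at 5.45 and 4.13, a mean of 4.79 ± 0.30. The fatty acid receptor gene Cd36 averaged 4.58 ± 0.55, the polyunsaturated elongase gene Elovl2 3.72 ± 0.26 and the phosphatidate phosphatase gene Lpin1 3.57 ± 0.26, with Cd36 called only with the offset. The liver ratio exceeded the brain ratio for 8 genes of this list and fell short of it for 6.

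Amino acid catabolism stood on the mouse side in most of its called genes. Of 49 measured genes, 29 were higher and 3 lower (13 and 1 without the dye offset), with a median of 2.40. Agxt, which detoxifies glyoxylate, stood at 5.61 and 4.12, a mean of 4.86 ± 0.32. Hao1, which makes glyoxylate from glycolate, stood at 5.95 and 4.38, a mean of 5.16 ± 0.30. Dmgdh, which demethylates dimethylglycine, stood at 6.37 and 4.36, a mean of 5.37 ± 0.31. Replicate 1 was the higher array for all 3. Tyrosine breakdown was represented by Tat, given above, and by Fah, its last enzyme, at 4.26 ± 0.21. Within the urea cycle itself, the argininosuccinate lyase gene Asl was higher only with the offset, at 4.63 and 0.92, a mean of 2.78 ± 0.42. The argininosuccinate synthetase gene Ass1 averaged 1.33 ± 0.34, arginase, Arg1, 0.71 ± 0.44 and ornithine transcarbamylase, Otc, -0.13 ± 0.46, and none of these was called. The lower genes were Acmsd, which steers tryptophan away from NAD, at -1.17 ± 0.21, the alanine aminotransferase gene Gpt at -1.13 ± 0.22 and the leucine catabolic gene Mccc1 at -1.10 ± 0.25. Gpt and Mccc1 were called only with the offset.

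Methionine and one-carbon genes gave 11 higher and 3 lower of 22 measured (2 and 1 without the dye offset), with a median of 0.64. Mat1a was joined by Bhmt2, which remethylates homocysteine, at least 5.51, by Ahcy, which hydrolyses S-adenosylhomocysteine, at least 5.81, and by Cth, which makes cysteine, at least 5.06. Ahcy and Cth were called only with the offset and had brain means of 2.66 and 2.25. Nnmt, which methylates nicotinamide, was lower, at -3.16 and -3.03, a mean of -3.09 ± 0.21, by both rules. The folate enzymes Shmt1 at -1.45 ± 0.34 and Mthfd1 at -1.26 ± 0.23 were lower only with the offset. Shmt1 was not called with a robust variance prior in limma (adjusted p = 0.0546). Nor was it called by limma when genes with several features took their median (adjusted p = 0.0501). Shmt1 has 1 feature, so its own values were the same in that fit.

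Glucose and glycogen genes gave 13 higher and 6 lower of 43 measured (3 and 1 without the dye offset), with a median of 0.40. Gys2, the liver glycogen synthase, stood at 5.59 and 5.00, a mean of 5.30 ± 0.21. The gluconeogenic enzyme gene Fbp1 averaged at least 6.40, the glucose transporter gene Slc2a2 at least 5.20 and liver glycogen phosphorylase, Pygl, 4.76 ± 0.42, with the last 2 called only with the offset. G6pc, which releases free glucose, was lower, at -2.41 and -2.18, a mean of -2.29 ± 0.24, by both rules. Pck1, the other gluconeogenic control enzyme, averaged -0.15 ± 0.27, without a call. The phosphofructokinase gene Pfkp averaged -2.13 ± 0.26, the lactate dehydrogenase gene Ldha -1.45 ± 0.23 and the aldehyde dehydrogenase gene Aldh1b1 -1.74 ± 0.26, lower only with the offset.

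The enzymes that clear drugs, steroids and toxins held large ratios in both directions. Among cytochrome P450 genes of families 1 to 4, 22 of 38 measured were higher and 5 lower (12 and 4 without the dye offset), with a median of 1.87. Besides Cyp2f2 and Cyp3a41a, Cyp3a16 averaged at least 6.64 and Cyp2c40 at least 6.10. Cyp2b10, the P450 that phenobarbital induces in mouse, was lower, at -4.67 and -3.49, a mean of -4.08 ± 0.29. Cyp2b13, of the same subfamily, stood at -5.21 and -3.96, a mean of -4.59 ± 0.49. Replicate 1 was the lower array for both, and both were called by both rules. A further member of the subfamily, Cyp2b9, stood on the mouse side at 4.98 and 3.04, a mean of 4.01 ± 0.39, higher only with the offset. Cyp2j6 averaged -1.82 ± 0.21 and Cyp3a25 -1.64 ± 0.24, lower, and Cyp3a25 only with the offset. Cyp1a2, which oxidises aromatic amines, averaged 0.30 ± 0.38, without a call. These families hold near-identical paralogs whose probes may share signal, so a ratio of a single member is uncertain. The liver ratio was above the brain ratio for 18 of the family members and below it for 1.

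Conjugation enzymes were higher for 24 and lower for 8 of 42 measured (12 and 4 without the dye offset), with a median of 1.86. The glutathione transferases were found at both ends. Gstp1, the pi-class enzyme, stood at 4.89 and 4.81, a mean of 4.85 ± 0.23, and Gsto1, the omega-class enzyme, averaged 5.21 ± 0.23. Gstt3, a theta-class enzyme, stood at -3.05 and -3.79, a mean of -3.42 ± 0.21, and Gstm5, a mu-class enzyme, averaged -1.99 ± 0.23. Gsta3, Gstp1 and Gsto1 on the mouse side and Mgst2, Gstt3 and Gstm5 on the hamster side were called by both rules. The sulfotransferase gene Sult2a8 averaged at least 5.74 and was called only with the offset.

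Aldo-keto reductases, carboxylesterases and other oxidoreductases gave 32 higher and 3 lower of 47 measured (13 and 0 without the dye offset), with a median of 1.92. Ces3a, next to Ces3b in function, averaged at least 5.82. Within the Akr1c family the members diverged. Akr1c6 has been given as at least 6.90, whereas Akr1c18, which inactivates progesterone, stood at -6.23 and -3.98, a mean of -5.11 ± 0.44, and Akr1c12 averaged -1.01 ± 0.24. The steroid dehydrogenase gene Hsd17b11 averaged -3.25 ± 0.25. Akr1c18, Akr1c12 and Hsd17b11 were lower only with the offset.

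**Figure D4:**
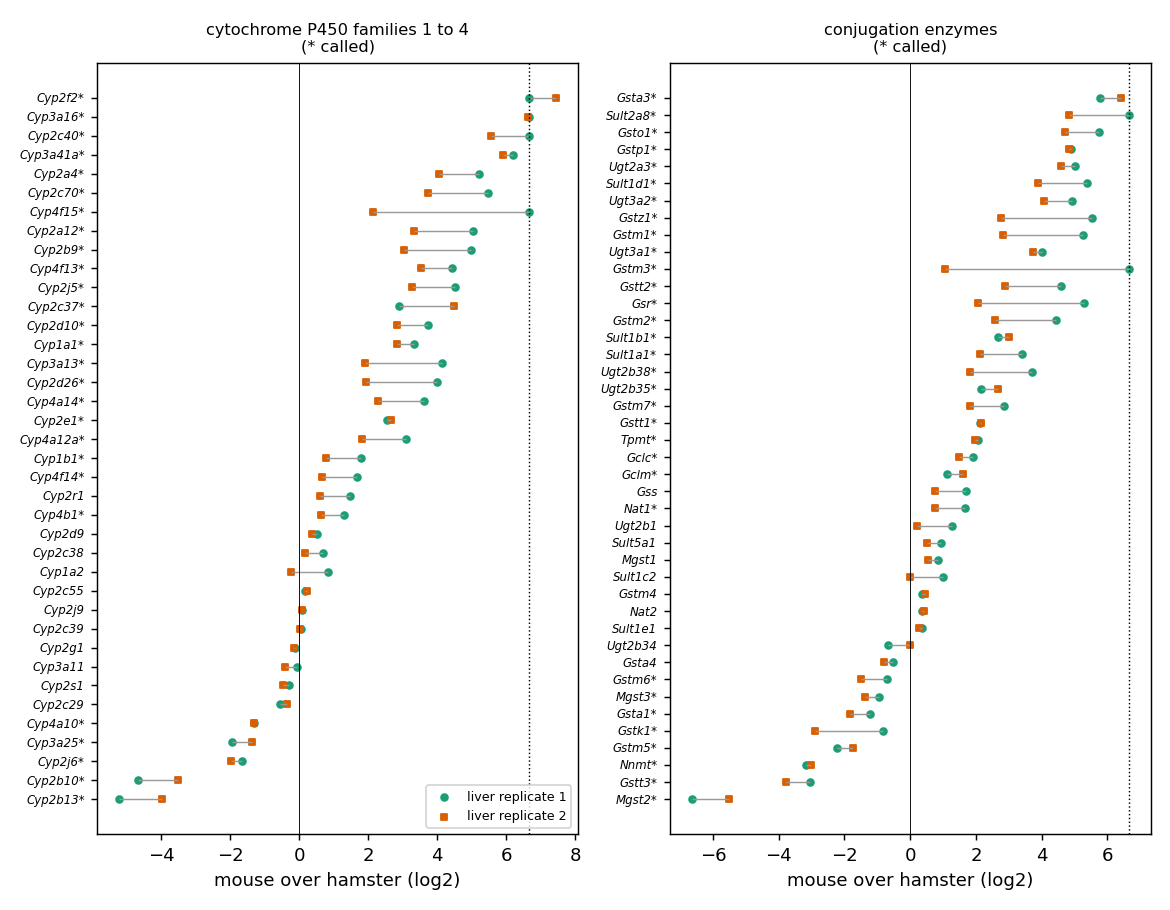
Mouse over hamster ratios (log2) on both liver arrays are shown for each measured gene of cytochrome P450 families 1 to 4 (left) and of the conjugation enzymes (right), ordered by their mean, with a star on called genes and a dotted line at the deposited limit. The P450 members run from a mean of -4.59 for Cyp2b13 to at least 7.04 for Cyp2f2, and the conjugation enzymes from Mgst2 at -6.07 to Gsta3 at 6.10.

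Among regulators, the share of lower calls was near that of all genes. Of 33 measured liver transcription factors and nuclear receptors, 8 were higher and 3 lower (2 and 0 without the dye offset), with a median of 0.44. Over all genes 16.3% were higher and 9.22% lower. Nr1h4, the bile acid receptor FXR, stood at 4.00 and 3.14, a mean of 3.57 ± 0.24. Ppara, the fatty acid sensor, stood at 2.51 and 1.75, a mean of 2.13 ± 0.25. Replicate 1 was the higher array for both, and both were called by both rules. The oxysterol receptor gene Nr1h3 averaged 1.87 ± 0.25 and Creb3l3 1.61 ± 0.21, higher only with the offset. The thyroid hormone receptor gene Thrb averaged -2.003 ± 0.47 and the growth hormone signal gene Stat5b -1.01 ± 0.21, lower only with the offset, and Thrb was not called with a robust variance prior in limma (adjusted p = 0.0584).

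Because the sex of the animals is not given, genes known to differ between male and female mouse liver were counted as well. Of 38 measured, 19 were higher and 5 lower (8 and 3 without the dye offset), with a median of 1.19. Genes biased to females in mouse were found on both sides, with Cyp3a41a and Cyp3a16 higher and Cyp2b13 lower. Gstp1, biased to males in mouse, was higher, as was the complement regulator gene Susd4 at 4.68 or more, the latter only with the offset. The steroid hydroxylase gene Cyp17a1 averaged -2.16 ± 0.22 and the fatty acid hydroxylase gene Cyp4a10 -1.30 ± 0.21, both lower, and Cyp17a1 only with the offset. The part of sex in these ratios was not tested.

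Time of day and handling are not given either. Clock genes gave 6 higher and 4 lower of 21 measured (0 and 2 without the dye offset), with a median of 0.10. Over all genes 16.3% were higher and 9.22% lower. Rora, an activator of the clock loop, averaged -2.21 ± 0.27 and Nfil3, a repressor of clock output, -1.31 ± 0.22, both lower by both rules. The output factor Dbp averaged 1.35 ± 0.22 and the deubiquitinase gene Usp2 1.43 ± 0.28, higher only with the offset. The core activator gene Arntl averaged -1.46 ± 0.33 and Per1 -0.89 ± 0.21, lower only with the offset. Immediate early and stress genes gave 6 higher and 6 lower of 35 (1 and 2 without the dye offset), with a median of 0.20. Their higher share was near that of all genes, and nothing is read from either count about a clock or stress response. Btg2, an early growth-arrest gene, stood at -4.15 and -4.67, a mean of -4.41 ± 0.23, and Ier3 averaged -1.40 ± 0.22, lower by both rules. The metallothionein gene Mt1, induced by zinc and stress hormones, stood at -2.16 and -4.94, a mean of -3.55 ± 0.34, lower only with the offset. Srxn1, which repairs oxidised peroxiredoxins, averaged 3.37 ± 0.21 and was higher by both rules, although its 2 features stood at 6.55 and 0.19, the latter not called on its own. The glutathione-degrading Chac1 averaged 2.42 ± 0.23, Myc 1.85 ± 0.21 and the asparagine synthetase gene Asns 1.14 ± 0.21, higher only with the offset. The part of time of day or handling in these ratios was not tested.

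Genes that all cells use were counted beside the shares over all genes, 16.3% higher and 9.22% lower. Ribosomal protein genes gave 13 higher and 1 lower of 50 measured, with a median of 0.21. Oxidative phosphorylation gave 24 and 5 of 68, with a median of 0.38, and the proteasome 2 and 3 of 35, with a median of -0.05. Neither proteasome share exceeded that of all genes, nor did the lower share of the ribosomal or oxidative phosphorylation genes. Without the dye offset the ribosomal calls were 0 and 0, the oxidative phosphorylation calls 1 and 0, and the proteasome calls 1 and 0. In that fit the centring shift of genes with similar ratios in both tissues counts as error. The ribosomal protein genes Rps4x, Rpl39, Rps23 and Rpl4, and the respiratory chain genes Uqcrq, Atp5a1, Uqcrc2 and Ndufc2, shared the bound of at least 3.82, since liver and brain replicate 1 both lay at the limit, and they have no order. Of the ribosomal genes, 0 were called above and 0 below their brain ratio, and of the oxidative phosphorylation genes 0 and 1.

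Interferon response and MHC class I genes gave 14 higher and 1 lower of 38 measured (2 and 1 without the dye offset), with a median of 0.69. Ifitm3, which blocks virus entry, averaged at least 5.78 by both rules. B2m, the light chain of MHC class I, averaged at least 4.80 and the heavy chain gene H2-K1 at least 4.58. Both were called only with the offset, and their brain means were at least 3.82 and 2.28. H2-Q10, a secreted class I molecule of mouse liver, averaged 4.23 ± 0.21 over 2 features that differed widely, at 1.99 and 6.46. Ifitm1, a relative of Ifitm3, stood at -3.75 and -3.01, a mean of -3.38 ± 0.25, and was the lower gene.

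Whole liver holds other cells, and in bulk RNA fewer cells of a type and less RNA per cell cannot be told apart. Of 15 measured Kupffer cell and macrophage markers, 2 were higher and 1 lower, with a median of -0.22. Over all genes 16.3% were higher and 9.22% lower, and counts this small in lists this short are given as values with nothing read from them about the cell types. The scavenger receptor gene Cd163 averaged 3.94 ± 0.25 and the macrophage adhesion receptor gene Adgre1 2.13 ± 0.22, while C1qc was the lower one. Sinusoidal endothelium gave 3 higher and 0 lower of 16 (Fcgr2b 4.01 ± 0.34, Ptprb 2.42 ± 0.35, Stab1 1.23 ± 0.22), with a median of 0.61. Stellate cell and fibroblast markers gave 5 higher and 3 lower of 18, with a median of 0.56. Ecm1 averaged 2.25 ± 0.25 and the collagen-binding Lum 1.79 ± 0.21, while the protease inhibitor gene Timp1 averaged -2.48 ± 0.27 and the collagen gene Col1a2 -1.19 ± 0.21. In the stellate list 1 higher and 2 lower genes were called without the dye offset, and 0 of the Kupffer and endothelial markers were.

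Cholangiocyte markers gave 0 higher and 2 lower of 12 measured (the bile duct channel Cftr at -0.96 ± 0.21, Prom1 at -1.13 ± 0.25), and lymphocyte markers 0 and 1 of 18 (Gzma at -1.63 ± 0.22). Their medians were -0.38 and -0.15. Red cell and neutrophil markers gave 3 and 1 of 12, with a median of 0.16. Alas2, the haem synthesis enzyme of red cell precursors, averaged 1.47 ± 0.23 and the neutrophil calcium-binding S100a9 1.28 ± 0.27, both higher. For pancreas, gut and gallbladder the counts were 2 and 2 of 16, where Fabp2, a higher member, averaged 3.45 ± 0.55. For neurons they were 3 and 2 of 28. There the neuronal enolase gene Eno2, a lower member, averaged -1.53 ± 0.33 in liver and 3.14 in brain. The other called members of both lists are not named here. Median ratios of these last lists were -0.01 and -0.10. Apart from 2 neuron markers, none of the genes in these 5 lists was called without the dye offset. Whether cell make-up plays a part in the ratios of other genes was not tested.

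With the dye offset, many calls were common to liver and brain. Of the 2697 genes higher in liver, 1621 (60.1%) were also higher in brain, which is 46.6% of the 3480 brain genes. Of the 1521 lower in liver, 488 (32.1%) were also lower in brain, or 28.1% of the 1736 brain genes. Among all 16504 genes, 3480 were higher and 1736 lower in brain. Without the offset term, 40 of these 2109 shared calls (1.90%) were called in liver. The centring moves a gene with equal ratios in both tissues most, and without the term that shift counts as error. The low number is thus largely set by the centring and is not read as a lack of support. Over 16504 genes the liver and brain means had a Pearson correlation of 0.504, a description over genes that share probes, fit and dye offset. The difference itself passed the test for 655 genes with a liver ratio above brain (3.97%) and 799 below (4.84%), together 8.81%. Of the genes higher in liver 438 (16.2%) were among the first, and of those lower in liver 248 (16.3%) among the second.

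The lists differed in how many members passed this test, and no test compared them. Liver ratios stood above brain ratios for 13 of 30 clotting genes, 21 of 42 conjugation enzymes, 18 of 38 P450 genes, 20 of 47 oxidoreductases and 19 of 49 amino acid genes. They did so for 10 of 22 bile acid genes, 6 of 20 lipoprotein genes, 8 of 28 complement genes, 9 of 39 other plasma proteins, 5 of 22 methionine and one-carbon genes and 8 of 36 fat synthesis genes. The corresponding number was 7 of 33 for transcription factors, 4 of 21 for cholesterol synthesis, 8 of 43 for glucose and glycogen, 6 of 38 for interferon and MHC class I, 6 of 46 for fatty acid oxidation and 4 of 32 for iron and haem. It was 0 of 50 for ribosomal proteins, 0 of 68 for oxidative phosphorylation and 0 of 35 for the proteasome, beside 3.97% of all genes. The files hold no intensities, so which brain ratios come from genes that are scarcely expressed in brain could not be read.

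**Figure D5:**
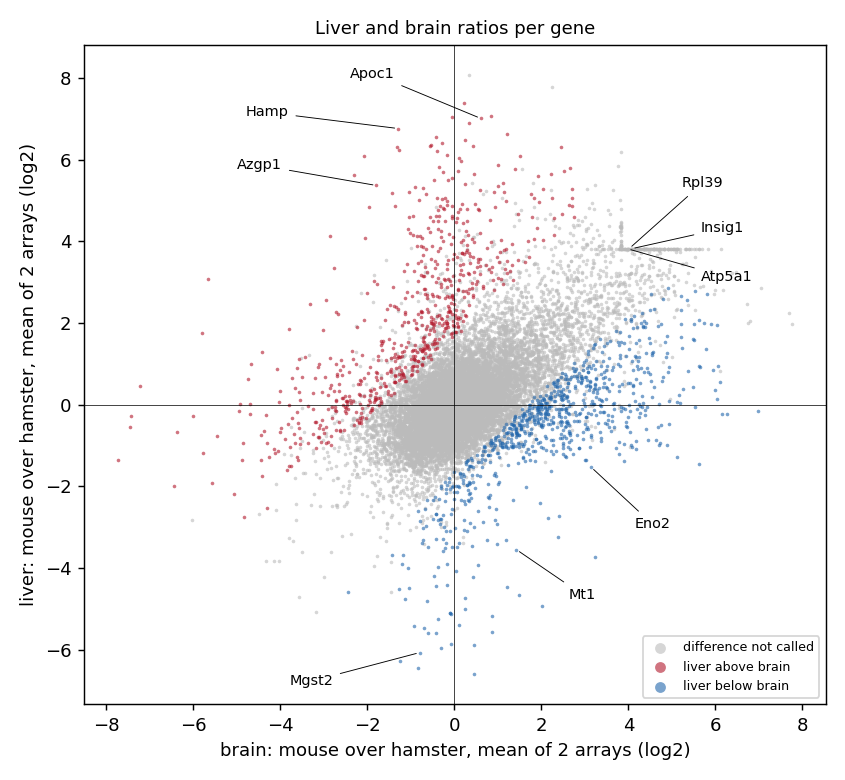
Each point is 1 gene, with its mouse over hamster brain mean across and its liver mean upward (log2), coloured where the difference between the tissues was called. Apoc1 and Hamp lie high above the genes with equal ratios, with brain means of 0.61 and -1.29, and Eno2 and Mt1 lie below them.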

How the data were processed

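The deposited values were log10 ratios with Cy5 as numerator and Cy3 as denominator, per the labels, for 202 arrays, with 0 missing values and a lower limit of -2. Per the labels' protocols, the dyes were coupled by direct labelling of total RNA. How the images were read, corrected for background and normalised is not given in the sources used here. In 20720 of 20868 features (99.3%) the linear ratios of the 4 tissue arrays had a median of 1 (tolerance 1e-06), and the other 148 all held a value at the limit. Gene symbols came from GEO's platform annotation, which can be old. It gave 1 symbol for 17786 features, several for 16 and none for 3066. No probe or genome sequence was used here.

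Ratios were oriented as mouse over hamster, converted to log2 and averaged over the features of a gene. Limma 3.58.1 in R 4.3.3 was fitted to the 2 liver and 2 brain arrays with terms for liver, brain and 1 dye offset per gene (1 residual degree of freedom), and liver and liver minus brain were tested with eBayes and Benjamini-Hochberg adjustment over 16504 genes. Each SE comes from all 4 arrays. The labels tie the replicate number to the dye orientation, and the replicate deviations of brain and liver correlated at 0.439 over genes. The script was tested on simulated data. Array SDs of the log2 ratios ran from 1.14 to 1.53.

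The genes, lists and tests were chosen with earlier results of these data known. Named genes were the 3 markers, the 15 highest and 15 lowest called genes without a value at the limit and with 1 sign on both arrays, up to 5 bounds in each direction, and up to 4 called genes per list and direction. Uncalled genes were named for their role. Ttr, Tat, Cyp2e1, F2, Fga, Hmgcs1, Fdps, Sqle, Cyp51, Abcb11, Slc10a1, Fah, Asl and Cyp2b9 lie outside this rule and were named for their role after their values were seen. Alternatives were the fit without the dye offset, liver arrays alone, each array left out, scaled or centred arrays, limit values left out, the median of features, single features, a robust prior and a minimum mean.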

Additional observations from a re-analysis of the deposited data

Results flagged for a closer look

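The mouse over hamster ratio of 120 of the 213 genes named in the text differed between liver and brain by limma's test of the difference, with adjusted p-values from 0.0163 to 0.0475. The liver ratio was above the brain ratio for 80 and below it for 40. Most of the named genes were chosen for large liver ratios and some for opposite directions in brain. A high count is thus built into the choice, and nothing is read from it. Over all genes the difference was called for 8.81%, with 3.97% above brain and 4.84% below. The differences below are liver minus brain on the log2 scale, from 2 arrays per tissue, and a value at the deposited limit makes the difference of its gene approximate.

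Among lipoprotein genes the difference was 6.40 for Apoc1, 4.93 for Apoa1, 3.85 for Apom and 2.59 for Apof. For cholesterol synthesis genes it was 3.21 for Ebp, 2.87 for Sqle and 2.78 for Dhcr7. In bile acid genes it stood at 5.64 for Cyp2c70, 4.90 for Acox2, 4.38 for Abcb11, 4.10 for Nr1h4, 1.93 for Slc10a1 and -3.04 for Nr0b2. Among cytochrome P450 genes the difference was 8.16 for Cyp2c40, 7.09 for Cyp2f2, 5.93 for Cyp3a41a, 5.43 for Cyp3a16, 4.27 for Cyp2b9, 2.83 for Cyp2e1 and -4.12 for Cyp2b10. For conjugation enzymes it was 4.58 for Gsta3, 4.30 for Gsto1, 3.92 for Gstp1, 3.21 for Sult2a8, -1.95 for Gstm5, -2.91 for Nnmt, -4.40 for Gstt3 and -5.28 for Mgst2. In amino acid catabolic genes it stood at 5.82 for Hao1, 5.55 for Hpd, 5.19 for Agxt, 4.35 for Dmgdh, 3.99 for Fah, 3.50 for Tat and 2.81 for Cth. Among methionine and one-carbon genes the difference was 6.60 for Mat1a, 5.66 for Bhmt2 and 3.15 for Ahcy. For clotting genes it was 6.24 for Kng1, 5.45 for Plg, 5.21 for Serpind1, 4.31 for Serpinf2, 3.55 for Serpinc1, 2.48 for F2 and 2.04 for Fga. In complement genes it stood at 7.51 for C8b, 6.90 for Cfi, 4.50 for Hc, 3.23 for C1ra and -2.03 for C1qc. Among other plasma protein genes the difference was 7.16 for Azgp1, 6.61 for Orm2, 3.42 for Serpina3n, 2.92 for Ttr, -2.24 for Lcn2, -2.45 for Fetub, -3.05 for Serpina7 and -3.53 for Afp. For iron genes it was 8.05 for Hamp, 5.38 for Tmprss6 and 2.61 for Tfr2. In fatty acid oxidation and peroxisome genes it stood at 7.63 for Uox, 4.54 for Fabp2, 2.25 for Hacl1, 2.00 for Ppara and -1.85 for Ehhadh. Among fat synthesis and storage genes the difference was 5.03 for Plin2, 3.53 for Elovl2, 3.02 for Lpin1, -2.50 for Fasn, -3.60 for Acacb, -3.68 for Vldlr and -3.75 for Pnpla3. For glucose and glycogen genes it was 6.69 for Fbp1, 6.24 for Slc2a2, 6.03 for Gys2, 4.19 for Pygl, -2.34 for Aldh1b1 and -3.09 for G6pc. Among clock genes the difference was 2.06 for Dbp. For stress genes it was 2.51 for Srxn1, -4.25 for Btg2 and -4.98 for Mt1. In interferon and MHC genes it stood at 4.79 for H2-Q10, 4.37 for Ifitm3, 2.30 for H2-K1 and -3.18 for Ifitm1. Among oxidoreductases and esterases the difference was 7.15 for Ces3b, 6.56 for Akr1c6, 6.16 for Ces3a, 5.98 for Rdh7, 5.63 for Ephx2 and -5.02 for Akr1c18.

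Of genes outside these lists, liver stood above brain by 7.00 for Hsd3b4, 5.97 for Msrb1, 5.80 for Mettl7b, 5.61 for Olfr1061, 4.97 for Kdm5c, 3.88 for Rdh14, 3.15 for Alas2, 2.48 for S100a9 and 2.21 for Susd4. Liver minus brain was -4.49 for Il1r2, -4.67 for Eno2, -4.78 for Cnga1, -4.87 for Fat3, -4.98 for 3110021A11Rik, -5.01 for Mybphl, -5.15 for Kdelr3, -5.50 for Metap1d and -5.62 for Olfr1216. Further values were -5.65 for Spns3, -5.80 for Hbb-y, -6.04 for Hspb3, -6.15 for Hivep1, -6.33 for Olfr1230, -6.42 for Cpne7, -6.95 for Pcsk1, -6.96 for Fabp7 and -7.05 for Rnase2a.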

How the results depend on the processing

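Replicate number and dye orientation coincide, so the dye offset used throughout is the replicate block. With no replicate block, 388 genes were higher and 373 lower in mouse liver, and 419 had a liver ratio above brain, against 2697, 1521 and 655 with it, while 583 stood below brain against 799. Directions could not change there, since the mean of a gene is the same in both fits. The 2 liver arrays alone, tested against 0 by limma, gave 0 higher and 0 lower genes, where 5327 genes had a raw p under 0.05. Leaving out any 1 of the 4 arrays leaves no residual degree of freedom beside the offset, so those fits had no offset and gave 0 calls each in either direction. Raw limma p-values under 0.05 numbered 4869 without liver replicate 1, 4949 without liver replicate 2 and 5327 without either brain replicate. There the lone array of a tissue is assumed to vary like the pair. Under the other alternatives the counts stayed within 1.5 times. Higher genes ran from 2460 with limit values left out to 2848 with scaled arrays, and lower genes from 1490 with a robust variance prior to 1689 with scaled arrays, apart from the added minimum of 1 on the absolute mean, which gave 2526 and 1288, and single features, which gave 3070 and 1746. Scaling moved liver above brain to 554 and below to 607. Of the genes called with the offset, 4214 were also called after scaling and 3937 with limit values left out. Some genes that were not called in liver changed sign, and the cause was not tested. Without liver replicate 1 and with no replicate block, means were 0.45 for Apoa2, -0.24 for Cyp1a2, 0.23 for Fabp1 and 0.039 for Pck1, and with the dye offset taken from brain 1.28 for Apoa2, -0.42 for Arg1, -0.64 for Cyp1a2, -0.29 for Cyp8b1, 0.55 for Fabp1, 0.34 for Pck1 and -0.70 for Serpinc1. Without liver replicate 2, Apob averaged 0.38 with no replicate block, and with the offset from brain Apob gave 0.59, Apoe -0.62, Hp 0.078 and Otc 1.04. With centred arrays the gene Apoe averaged -0.0062. With so few arrays precision is limited, and the absence of intensities leaves signal over background unknown.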

Other observations

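A further set of genes ran in opposite directions in the 2 tissues. In 156 of the 16504 genes, all without a value at the limit, liver and brain were called in opposite directions and their difference was called as well. Of these, 75 were higher in liver and lower in brain and 81 the reverse. Most of them were not called in liver without the dye offset. This selection was made after the data had been seen, and its genes were named after their values were seen. On the liver side, Hpd, which starts the breakdown of tyrosine beyond transamination, averaged 4.61 ± 0.23 (limma SE from the 4 tissue arrays) in liver and -0.94 in brain. Hsd3b4, a steroid dehydrogenase, averaged 4.14 ± 0.21 and -2.86, and Kdm5c, a histone demethylase, 4.12 ± 0.22 and -0.85. Azgp1 and Orm2, described above for liver, had brain means of -1.79 and -1.43. Without the dye offset Hpd, Kdm5c and Orm2 were called in liver, and Hsd3b4 and Azgp1 were not. The brain calls of Hpd and Kdm5c lay near the threshold (adjusted p = 0.0435 and 0.0496 by limma).

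In the other direction, Pcsk1, a protease that matures prohormones, averaged -4.93 ± 0.30 in liver and 2.02 in brain. Fabp7, the fatty acid binding protein of brain glia, averaged -3.74 ± 0.22 and 3.22, and Hivep1, a zinc finger factor, -4.66 ± 0.22 and 1.49. Mt1 and Gstt3 showed the same order, with brain means of 1.43 and 0.98. Without the dye offset Hivep1 and Gstt3 were called in liver, and Pcsk1, Fabp7 and Mt1 were not. The brain call of Mt1 lay near the threshold (adjusted p = 0.0427 by limma).

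Features without a single gene symbol took part as well. Of 3082 such features tested on their own, 364 (11.8%) were higher and 230 (7.46%) lower in mouse liver, beside 15.2% and 8.52% of the 17786 named features. No test was made of that difference.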
